A study of Mus musculus with 6 samples.

Results

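The genes described here encode the Golgi glycosyltransferases that build the glycans of mucins, other glycoproteins and glycolipids at the cell surface. They were found by symbol: the Galnt, C1galt1, Gcnt, B3gnt, B3galt, B4galt, B4galnt, Fut, St3gal, St6gal, St6galnac and St8sia families, taken from array rows with 1 gene symbol. The rule found 77 genes among the 19938 genes measured, in 12 families, and where a gene had several rows the brightest was used. They were measured at day E14.5 of mouse gestation, ahead of villus formation, in intestinal segments from a site about 1.5 cm on the anterior side of the cecum. The mutant group carried the genotype Klf5D/D, a deletion of the zinc-finger transcription factor gene Klf5, and the control group the genotype Klf5wt/wtShhEGFP/Cre+, which is wild-type for Klf5 and has the ShhEGFP/Cre allele. That allele places Cre and EGFP under the control of Shh, a gene of the gut epithelium. The genotype label of the mutants does not name a Cre allele. Both groups were of mixed strain with part C57Bl/6. Each group held 3 arrays, and each array held total RNA from the pooled segments of 2 intestines, with no sort of cell types named in the labels. The comparison was made to find candidate target genes of KLF5 in the development of villi and epithelium.

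A mucin-type O-glycan begins when a polypeptide GalNAc-transferase adds N-acetylgalactosamine to a serine or threonine. Core enzymes then add galactose or N-acetylglucosamine, further transferases lengthen the chain with lactosamine, and fucose, sialic acid or a terminal N-acetylgalactosamine caps it. The same lengthening and capping families also act on N-glycans and on glycolipids, gangliosides among them. In the intestine these glycans form the mucus and the glycocalyx of the epithelium, and polysialic acid and complex gangliosides are best known from neural cells.

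The array signals of these genes were log2 values normalised with RMA by the submitters, and a log2 difference of 1 is a 2-fold change. The correlation across rows, which are not independent replicates, was 0.994 to 0.997 for the 6 pairs of same-genotype arrays and 0.989 to 0.993 for the 9 mixed pairs. Klf5 read 10.24, 10.49 and 10.34 in the mutants (replicates 1, 2 and 3) against 11.55, 11.74 and 11.77 in the controls, the order used for every gene below, a fall of 1.33 on the log2 scale (SE 0.08, limma adjusted p = 9.62e-05, n = 3 arrays per group). The exact two-sided permutation test over arrays gave p = 0.1 for Klf5, the smallest value this design allows. The pools also differed in the sex of the embryos. The male share, estimated from the Y-linked genes Eif2s3y, Kdm5d and Uty, was 95% to 103% in the mutant pools and 0%, 47.1% and 40.8% in control replicates 1, 2 and 3. Xist, which coats the inactive X of females, was at 5.89 to 6.47 across the mutants, well under the controls at 11.9 to 12.6. The effects of sex and of genotype can therefore be told apart only in part, and the values with the male share as a covariate are given below.

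Promoter sequences are shown for the 3 genes with the largest falls and the 3 with the largest rises among the genes with an entry in the RefSeq promoter table, so that members that moved in each direction can be set side by side. The table held 56 of the 77 genes. Each sequence is the 250 bases before the annotated start, 5′ to 3′ on the gene's strand. Capitals mark matches on either strand to CCNCNCCC, a GC-rich pattern of the kind that Krüppel-like factors bind.
B3gnt3 (GRCm38.p6 chr8:71701801-71702050, minus strand): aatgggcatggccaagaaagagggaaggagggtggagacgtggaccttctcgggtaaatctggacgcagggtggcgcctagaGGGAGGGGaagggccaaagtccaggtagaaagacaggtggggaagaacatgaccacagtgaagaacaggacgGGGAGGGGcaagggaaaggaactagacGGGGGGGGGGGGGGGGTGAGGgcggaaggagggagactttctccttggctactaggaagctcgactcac
Galnt5 (GRCm38.p6 chr2:57997905-57998154, plus strand): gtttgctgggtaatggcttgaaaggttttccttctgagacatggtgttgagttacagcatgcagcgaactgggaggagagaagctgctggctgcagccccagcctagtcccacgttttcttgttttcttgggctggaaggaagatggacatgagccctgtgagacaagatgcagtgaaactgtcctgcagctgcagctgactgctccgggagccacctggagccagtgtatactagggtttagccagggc
B4galnt2 (GRCm38.p6 chr11:95914872-95915121, minus strand): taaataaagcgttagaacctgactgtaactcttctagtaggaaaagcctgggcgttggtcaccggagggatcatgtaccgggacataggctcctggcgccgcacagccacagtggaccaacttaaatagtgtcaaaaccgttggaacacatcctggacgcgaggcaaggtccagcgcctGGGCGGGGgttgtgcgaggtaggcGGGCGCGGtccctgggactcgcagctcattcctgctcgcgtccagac
St6gal2 (GRCm38.p6 chr17:55445132-55445381, plus strand): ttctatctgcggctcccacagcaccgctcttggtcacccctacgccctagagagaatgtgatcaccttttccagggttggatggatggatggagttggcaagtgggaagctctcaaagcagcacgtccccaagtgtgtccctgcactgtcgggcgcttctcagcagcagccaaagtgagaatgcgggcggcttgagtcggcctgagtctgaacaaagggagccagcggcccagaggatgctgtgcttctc
St8sia1 (GRCm38.p6 chr6:142964453-142964702, minus strand): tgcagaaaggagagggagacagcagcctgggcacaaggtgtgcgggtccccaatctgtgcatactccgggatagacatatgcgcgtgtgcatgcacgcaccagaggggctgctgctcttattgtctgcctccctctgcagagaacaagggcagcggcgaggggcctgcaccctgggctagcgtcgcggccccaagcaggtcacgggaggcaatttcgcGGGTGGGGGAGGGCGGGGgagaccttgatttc
B3gnt5 (GRCm38.p6 chr16:19759984-19760233, plus strand): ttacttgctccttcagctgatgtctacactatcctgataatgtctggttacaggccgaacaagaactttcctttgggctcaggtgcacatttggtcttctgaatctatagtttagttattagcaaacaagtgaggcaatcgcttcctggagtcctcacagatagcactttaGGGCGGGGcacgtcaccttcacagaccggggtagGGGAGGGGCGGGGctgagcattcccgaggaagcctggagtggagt
The window of B3gnt3 held 12 overlapping matches, most of them in a run of guanines, that of B4galnt2 held 2, and those of St8sia1 and B3gnt5 held 3 each. The windows of Galnt5 and St6gal2 held 0. Of the windows of members that fell, 5 of 6 held the pattern, against 15 of 24 for members that rose, 27 of 46 for members that did not pass the test, and 45.9% of all 32851 windows of this length. A shorter pattern, CACCC on either strand, was found in 3 of 6, 19 of 24 and 31 of 46 of these windows and in 52.0% of all windows, and it overlapped a match to the first pattern in 19.1% of all windows. The windows came from 6 of the 13 members that fell, 15 of the 21 that rose and 35 of the 43 that did not pass. B4galnt1, the gene with the largest fall, had no entry. The matches describe the sequence alone.

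Of the 77 genes, 34 passed the test between the groups (limma, Benjamini-Hochberg adjusted p under 0.05 over all genes): 21 rose and 13 fell in the Klf5-deleted intestine. That is 44.2% of the genes, against 17.5% of all genes tested, with 27.3% higher against 8.95% and 16.9% lower against 8.58%. Rises were 61.8% of the calls among these genes and 51.1% among all genes, and with arrays centred on their medians 51.6% (16 rose and 15 fell) and 40.8%. The groups did not overlap for 48 of the 77, or 62.3%, against 36.0% of all genes. The falls were the larger changes: 11 genes fell and 4 rose by at least 0.5 on the log2 scale, and 4 fell and 1 rose at least 2-fold. Over all genes the balance at 0.5 leaned the same way, with 3.24% lower (645 genes) and 1.23% higher (245 genes). At least 2-fold, 1.13% of all genes fell and 0.0903% rose. The median difference was −0.85 over the genes that fell and 0.31 over the genes that rose, which were defined by their sign. Over all 77 genes the median was 0.05, against 0.02 over all genes. The count of rises fell to 11 without Klf5-deleted replicate 3 and to 13 without control replicate 2, whereas the count of falls stayed between 12 and 14 on leaving out each array.

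**Figure D1:**
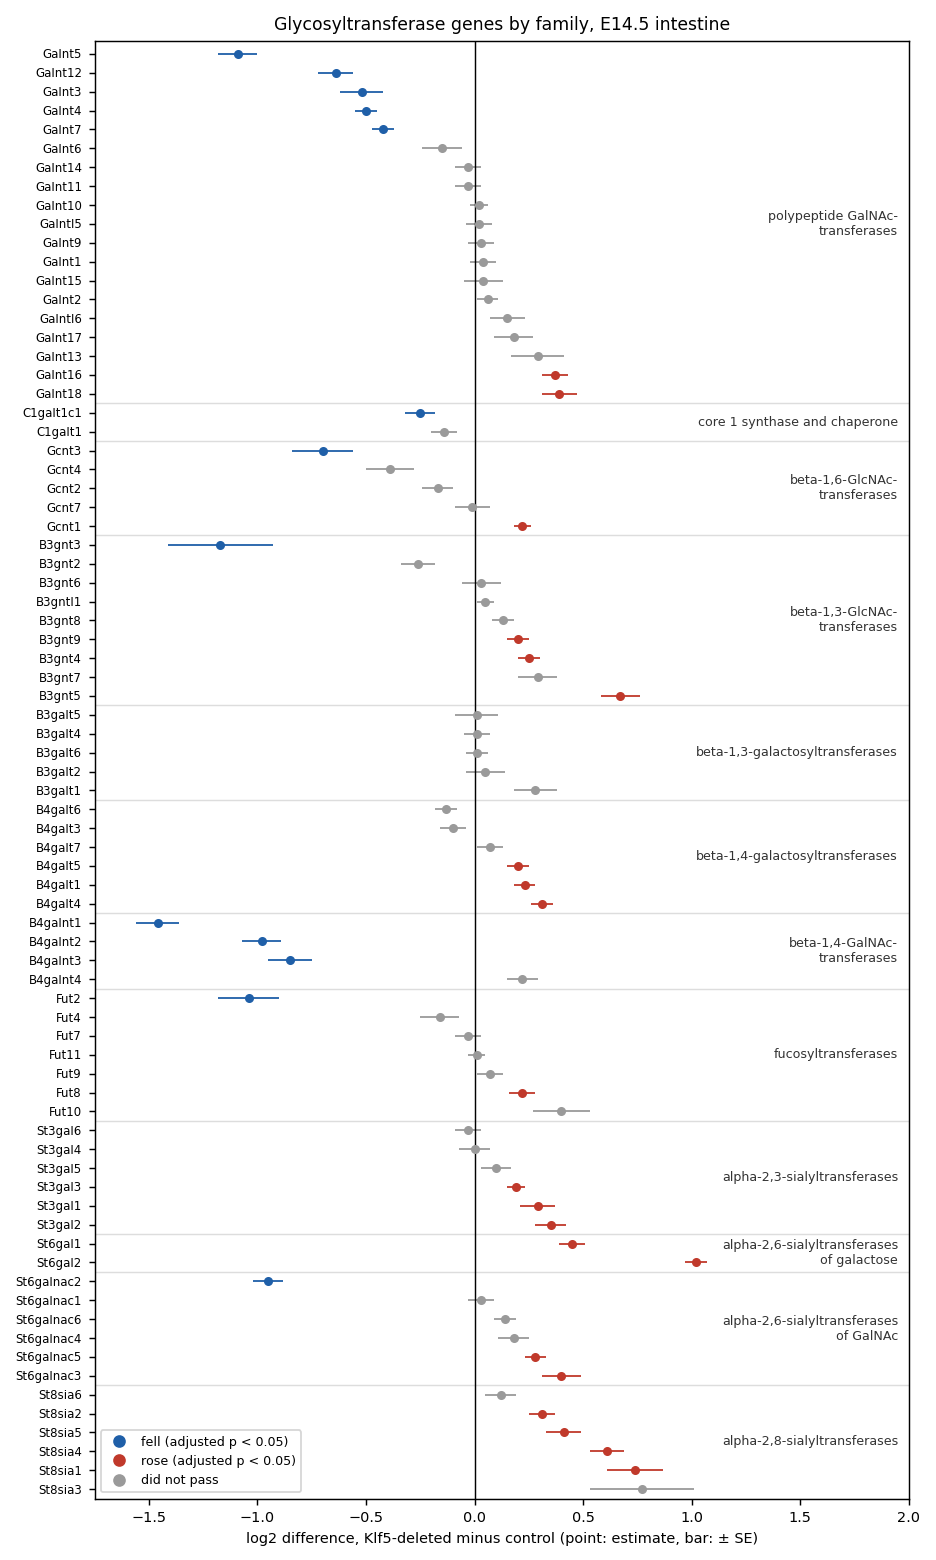
Log2 difference of each of the 77 glycosyltransferase genes, Klf5-deleted minus control (x axis), with genes grouped by family on the y axis; points are limma estimates, bars ± SE, and colour marks the call. Most sialyltransferase genes lie to the right of 0 and St6galnac2 lies far to the left at −0.95, and the 3 largest falls are B4galnt1 (−1.46), B3gnt3 (−1.17) and Galnt5 (−1.09).

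Rises and falls were divided unevenly between the genes that add sialic acid and the rest. Of the 20 sialyltransferase genes, 11 rose and 1 fell, with a median of 0.28. Of the other 57 genes, 10 rose and 12 fell, with a median of 0.02. Over all genes, 8.95% rose and 8.58% fell. The 11 sialyltransferase rises became 7 without Klf5-deleted replicate 3, control replicate 2 or control replicate 3, and 9 to 11 without each other array. The 10 rises of the other genes became 4 without Klf5-deleted replicate 3, 6 without Klf5-deleted replicate 2 or control replicate 2, and 7 or 8 without each other array. This split was made after the values were seen, and the difference between the 2 sets was not tested.

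The tissue held less epithelial signal relative to the whole. For scale, 8.95% of all genes rose and 8.58% fell, and no marker list was tested against these shares. All 22 pan-epithelial marker genes fell (median −0.83, from −1.52 to −0.30), and their summed linear signal was 25215 to 29678 in the mutants and 49720 to 51905 in the controls. None of the 22 was in the dimmest 25% of genes. Of 9 measured goblet cell markers 4 fell and 0 rose, with a summed signal of 3258 to 3590 against 4799 to 6378. Of 8 mesothelial markers 7 rose and 1 fell, with 8301 to 11097 against 5125 to 6839. The count of mesothelial rises was 2 without control replicate 2, where Wt1, Muc16, Gpm6a, Upk3b and Lrrn4 were lost, 3 without control replicate 3 and 5 or 6 without each other array. Of 10 fibroblast and mesenchyme markers 3 rose and 0 fell, with 47308 to 50695 against 43195 to 44598, and of 7 measured markers of enteric neurons and glia 1 rose, with 13584 to 15576 against 12401 to 13018. Of 10 smooth muscle markers 2 rose and 0 fell, of 8 leukocyte markers 0 rose and 1 fell, and of 9 endothelial and 5 measured pancreatic markers 0 passed by limma's adjusted p, and 1 of these, the endothelial Kdr (0.21), had an unadjusted p under 0.05. The summed signals of these 4 lists overlapped between the groups. Of 5 measured red cell markers 1 rose, with 7470 to 12122 against 4352 to 7339. Of 8 enteroendocrine markers 1 rose and 1 fell (median −0.01), with 1886 to 2017 against 1537 to 1853. The rise was that of Rfx6 (1.68, SE 0.16, limma adjusted p = 0.000565) and the fall that of Neurog3 (−1.66, SE 0.28, adjusted p = 0.00692). In pooled tissue, fewer cells of a type and less RNA per cell cannot be told apart. Leaving out 1 array took the smooth muscle rises to 1 (without Klf5-deleted replicate 2 or 3 or control replicate 1 or 2), the leukocyte fall to 0 (without control replicate 1 or 2) and the red cell rise to 0 (without Klf5-deleted replicate 1 or 3 or control replicate 1 or 2). The part of these shifts in the values of the glycosyltransferase genes was not tested, for the falls and for the rises alike.

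Of the 19 polypeptide GalNAc-transferase genes, which start O-glycans, 5 fell and 2 rose. Galnt5 read 6.34, 6.32 and 6.63 in the mutants and 7.45, 7.61 and 7.51 in the controls. All 3 Klf5-deleted arrays lay well below the lowest control. The fall was 1.09 on the log2 scale (SE 0.09, adjusted p = 0.000308), to 46.8% of the control level. Galnt12, an enzyme of the digestive tract, read 7.80, 7.67 and 7.70 against 8.35, 8.53 and 8.21, a fall of 0.64 (SE 0.08, adjusted p = 0.00257). Galnt3 read 7.87, 8.26 and 7.99 against 8.64, 8.48 and 8.56, a fall of 0.52 (SE 0.10, adjusted p = 0.0112). For Galnt3 the gap between the highest mutant and the lowest control array was the narrowest of these 3 genes. The other genes that fell, Galnt4 and Galnt7, encode enzymes that prefer peptides already carrying N-acetylgalactosamine. Galnt4 read 9.22, 9.19 and 9.12 against 9.62, 9.68 and 9.74, a fall of 0.50 (SE 0.05, adjusted p = 0.000833), and Galnt7 read 9.91, 9.93 and 9.84 against 10.28, 10.37 and 10.29, a fall of 0.42 (SE 0.05, adjusted p = 0.00146). Galnt4 overlaps Poc1b in the annotation, which was at −0.21 (SE 0.05, adjusted p = 0.0237). All 5 falls kept their call on leaving out each array.

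The rises in this family were smaller. Galnt16 read 9.11, 9.06 and 8.92 against 8.71, 8.66 and 8.62 (0.37, SE 0.06, adjusted p = 0.00656). Galnt18 read 9.39, 9.08 and 9.14 against 8.82, 8.75 and 8.88 (0.39, SE 0.08, adjusted p = 0.0195), a call that did not hold without control replicate 1 or 2 (0.35 to 0.39, adjusted p = 0.0569 to 0.0745). The broadly acting Galnt1 and Galnt2 did not pass: Galnt2, the gene with the brightest row of the family, read 11.37, 11.40 and 11.39 against 11.34, 11.27 and 11.37. The other members that did not pass were Galnt6, Galnt9, Galnt10, Galnt11, Galnt13, Galnt14, Galnt15, Galnt17, Galntl5 and Galntl6. The 12 genes that did not pass lay between −0.15 (Galnt6) and 0.29 (Galnt13), and Galnt13 passed without Klf5-deleted replicate 1 (0.40, adjusted p = 0.0413). Galntl6 had 3 rows, at 0.15, 0.27 and 0.24, of which none passed.

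Core 1, the disaccharide that most O-glycans are built on, needs the enzyme C1GALT1 and its chaperone COSMC, encoded by the X-linked gene C1galt1c1. C1galt1c1 read 7.84, 7.92 and 7.81 against 8.07, 8.03 and 8.24, a fall of 0.25 (SE 0.07, adjusted p = 0.0352), to 83.8% of the control level. Its groups did not overlap, but the call was lost without Klf5-deleted replicate 1 or 3 or control replicate 1 or 3 (−0.28 to −0.19, adjusted p = 0.0655 to 0.111). C1galt1 did not pass (−0.14, SE 0.06, adjusted p = 0.163), with 10.49, 10.56 and 10.57 against 10.57, 10.73 and 10.74, so that the nearest arrays of the groups met.

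Of the 5 Gcnt genes, which add branches, 1 fell and 1 rose. Gcnt3, the mucin-type enzyme for core 2, core 4 and I branches, read 6.39, 6.65 and 6.73 against 7.13, 7.58 and 7.15, a fall of 0.70 (SE 0.14, adjusted p = 0.0133). Control replicate 2 was the highest array, and the call was kept on leaving out each array, at −0.78 to −0.55. Gcnt1, the core 2 enzyme of many tissues, read 7.93, 7.90 and 7.95 against 7.73, 7.68 and 7.72, a rise of 0.22 (SE 0.04, adjusted p = 0.0132). It no longer passed without Klf5-deleted replicate 3 or control replicate 2 (0.20, adjusted p = 0.0520 to 0.0561). Gcnt4 lay just outside the threshold (−0.39, SE 0.11, adjusted p = 0.0532) and passed without control replicate 3 (−0.49, adjusted p = 0.0307). Gcnt2, the I-branching enzyme gene and the brightest of the family, was at −0.17 (SE 0.07) and passed without Klf5-deleted replicate 2 (−0.24, adjusted p = 0.0495), and Gcnt7 was at −0.01 (SE 0.08).

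Of the 9 B3gnt genes, most of which encode enzymes that add N-acetylglucosamine to galactose, 1 fell and 3 rose. B3gnt3, whose enzyme extends core 1, read 7.21, 7.91 and 7.77 against 8.32, 9.07 and 9.0. The spread was wide in both groups, with Klf5-deleted replicate 1 and control replicate 1 the lowest of their groups. The fall was 1.17 (SE 0.24, adjusted p = 0.0156), and the call was lost without control replicate 2 or 3 (−1.07 to −1.03, adjusted p = 0.0589 to 0.0630). B3gnt5, which makes the precursor of lacto- and neolacto-series glycolipids, moved the other way, with 10.79, 10.49 and 10.56 against 9.95, 9.84 and 10.04. Its rise was 0.67 (SE 0.09, adjusted p = 0.00251), to 159% of the control level.

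The other 2 rises were small. B3gnt4 was at 0.25 (SE 0.05, adjusted p = 0.0202) and lost its call without Klf5-deleted replicate 2 or 3 or control replicate 3 (0.21 to 0.25, adjusted p = 0.0519 to 0.0715), and it overlaps Diablo in the annotation, which was at 0.10 (SE 0.06). B3gnt9 was at 0.20 (SE 0.05, adjusted p = 0.0460) and lost its call on leaving out any of the 6 arrays (0.16 to 0.22, adjusted p = 0.0602 to 0.138), and its overlapping gene D230025D16Rik was at −0.06 (SE 0.05). B3gnt7, known for keratan sulfate, was just outside (0.29, SE 0.09, adjusted p = 0.0556) and passed without control replicate 1 (0.38, adjusted p = 0.0208). B3gnt2, the main poly-lactosamine enzyme gene, was at −0.26 (SE 0.08, adjusted p = 0.0669) and passed without Klf5-deleted replicate 3 (−0.34, adjusted p = 0.0177). B3gnt6, the core 3 synthase gene of the colon, read 6.41, 6.5 and 6.48 against 6.65, 6.31 and 6.35 and was among the 9 members in the dimmest 25% of genes, and B3gnt8 and B3gntl1 did not pass either (0.13 and 0.05).

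None of the 5 B3galt genes passed (limma adjusted p at least 0.115), and 1 of them, B3galt1, had an unadjusted p under 0.05. Their differences lay between 0.01 and 0.28. B3galt5, which makes type 1 chains in the gut, read 7.07, 7.47 and 7.08 against 7.21, 7.17 and 7.22, so that the groups overlapped. B3galt6, a proteoglycan linker enzyme gene and the brightest of the family, was at 0.01 (SE 0.05), and its sign turned to −0.01 with arrays centred on their medians. B3galt2 and the ganglioside enzyme gene B3galt4 were at 0.05 and 0.01.

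Of the 6 B4galt genes, most of which encode enzymes that make lactosamine or lactosylceramide, 3 rose and 0 fell (0.20 to 0.31). B4galt4 read 9.94, 9.92 and 10.01 against 9.61, 9.73 and 9.61 (0.31, SE 0.05, adjusted p = 0.00849) and kept its call on leaving out each array. B4galt1, the general lactosamine enzyme gene, read 10.58, 10.57 and 10.65 against 10.39, 10.39 and 10.32 (0.23, SE 0.05, adjusted p = 0.0147), and lost its call without Klf5-deleted replicate 3 or control replicate 3 (0.21, adjusted p = 0.0533 to 0.0549). B4galt5, a lactosylceramide synthase gene, was at 0.20 (SE 0.05, adjusted p = 0.0279) and lost its call without any 1 array other than control replicate 3 (0.18 to 0.22, adjusted p = 0.0536 to 0.101). B4galt6, the other lactosylceramide synthase gene and the brightest of the family, was at −0.13 (SE 0.05, adjusted p = 0.153). B4galt3 and B4galt7 were at −0.10 and 0.07 and did not pass.

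Of the 4 B4galnt genes, which add terminal N-acetylgalactosamine, 3 fell and 0 rose. B4galnt1, the GM2 and GD2 ganglioside synthase gene, had the largest fall of all 77 genes. It read 9.11, 9.37 and 9.11 in the mutants and 10.80, 10.68 and 10.49 in the controls. The groups were more than 1 log2 unit apart at their nearest arrays. The fall was 1.46 (SE 0.10, adjusted p = 0.00013), to 36.3% of the control level. Slc26a10, which overlaps B4galnt1 in the annotation, was at −0.10 (SE 0.08) and did not pass. B4galnt2, which makes the Sda antigen of intestinal mucins, read 10.18, 10.44 and 10.54 against 11.30, 11.37 and 11.44, a fall of 0.98 (SE 0.09, adjusted p = 0.000553). B4galnt3, which makes terminal LacdiNAc, read 8.33, 8.73 and 8.54 against 9.38, 9.33 and 9.44, a fall of 0.85 (SE 0.10, adjusted p = 0.00133). In both genes the controls lay close together and every Klf5-deleted array lay below them. B4galnt4, with the same activity as B4galnt3, was at 0.22 (SE 0.07, adjusted p = 0.0765). The 3 falls kept their call on leaving out each array.

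**Figure D2:**
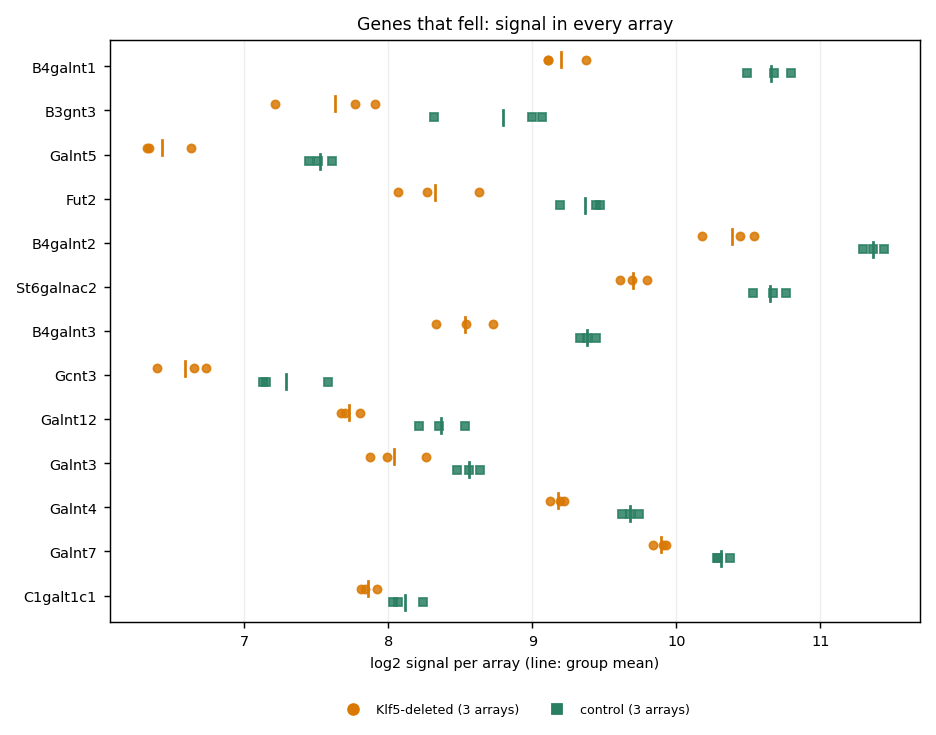
Log2 signal of each of the 13 genes that fell, with circles for the 3 Klf5-deleted arrays, squares for the 3 control arrays and a line at each group mean; genes are ordered by the size of the fall. No gene shows overlap between the groups, and the widest spread is that of B3gnt3, where control replicate 1 reads 8.32 and the other controls 9.07 and 9.0.

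Of the 7 fucosyltransferase genes, 1 fell and 1 rose. Fut2, the secretor enzyme gene that puts alpha-1,2-fucose on mucosal glycans, read 8.07, 8.63 and 8.27 against 9.44, 9.47 and 9.19. Its fall was 1.04 (SE 0.14, adjusted p = 0.00308), to 48.5% of the control level, and the call was kept on leaving out each array. Fut8, which adds core fucose to N-glycans, read 9.54, 9.57 and 9.57 against 9.22, 9.43 and 9.35 (0.22, SE 0.06, adjusted p = 0.0421). Its call was kept without control replicate 2 and lost without each of the other 5 arrays (0.17 to 0.23, adjusted p = 0.0739 to 0.113). The Lewis-type alpha-1,3-fucosyltransferase genes Fut4, Fut7 and Fut9 did not pass (−0.16, −0.03 and 0.07). Fut10 read 9.30, 9.48 and 9.27 against 8.82, 8.77 and 9.25, and it did not pass (0.40, SE 0.13, adjusted p = 0.0713). Its groups did not overlap, with control replicate 3 next to the mutants, and it passed without that array (0.56, adjusted p = 0.00948). Fut11 did not pass either (0.01, SE 0.04), and a second, dimmer row of Fut11 was at 0.22 (SE 0.13, adjusted p = 0.327 over all rows).

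Sialic acid is added to galactose in alpha-2,3 linkage by the St3gal enzymes, of whose 6 genes 3 rose and 0 fell. St3gal2, whose enzyme acts on gangliosides and core 1, read 10.37, 10.13 and 10.20 against 9.83, 9.90 and 9.93 (0.35, SE 0.07, adjusted p = 0.0138) and kept its call on leaving out each array. St3gal3 was at 0.19 (SE 0.04, adjusted p = 0.0210) and lost its call without any 1 array other than Klf5-deleted replicate 1 (0.18 to 0.20, adjusted p = 0.0507 to 0.0818). St3gal1, a core 1 enzyme gene, was at 0.29 (SE 0.08, adjusted p = 0.0484) and lost its call without any 1 array other than Klf5-deleted replicate 2 (0.21 to 0.31, adjusted p = 0.0866 to 0.151). Its second, dimmer row was at 0.03 (SE 0.05), and with the mean of both rows St3gal1 was at 0.16 (adjusted p = 0.0955). St3gal4, St3gal6 and the GM3 synthase gene St3gal5 did not pass (0.00, −0.03 and 0.10), and their arrays overlapped.

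Both St6gal genes, which cap lactosamine in alpha-2,6 linkage, rose. St6gal2 had the largest rise and the smallest adjusted p of the 77 genes. It read 9.60, 9.60 and 9.67 in the mutants and 8.57, 8.56 and 8.68 in the controls. The 3 arrays of each group lay within a narrow range, far from the other group. The rise was 1.02 (SE 0.05, adjusted p = 4.24e-05), or 2.03-fold. St6gal1, the main enzyme of this linkage on N-glycans, read 10.74, 10.65 and 10.58 against 10.26, 10.15 and 10.22, a rise of 0.45 (SE 0.06, adjusted p = 0.00229). Both calls were kept on leaving out each array.

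Among the 6 St6galnac genes, which sialylate N-acetylgalactosamine, 2 rose and 1 fell. St6galnac2, an enzyme gene of O-glycans and the sialyltransferase gene that fell, read 9.61, 9.69 and 9.80 against 10.76, 10.67 and 10.53. Its fall was 0.95 (SE 0.07, adjusted p = 0.000246), to 51.8% of the control level, and was kept on leaving out each array. St6galnac5, a ganglioside enzyme gene of brain, read 7.64, 7.57 and 7.60 against 7.27, 7.37 and 7.33 (0.28, SE 0.05, adjusted p = 0.00719) and also kept its call. It overlaps Pigk in the annotation, which was at 0.20 (SE 0.04, adjusted p = 0.0183). St6galnac3 read 10.17, 9.94 and 9.99 against 9.79, 9.51 and 9.63 (0.40, SE 0.09, adjusted p = 0.0206) and lost its call without Klf5-deleted replicate 3 or control replicate 2 or 3 (0.33 to 0.42, adjusted p = 0.0508 to 0.0707). St6galnac1, the sialyl-Tn enzyme gene of goblet cells in the adult, was at 0.03 (SE 0.06), in the dimmest 25% of genes, and St6galnac4 and St6galnac6 were at 0.18 and 0.14 and did not pass.

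Of the 6 St8sia genes, which join sialic acids to each other, 4 rose and 0 fell. St8sia1, the GD3 synthase gene, read 9.85, 9.30 and 9.41 against 8.74, 8.76 and 8.83 (0.74, SE 0.13, adjusted p = 0.00824). Klf5-deleted replicate 1 stood above the other mutants, and without it the rise was smaller, at 0.58, with the call kept. The polysialic acid synthase genes St8sia4 and St8sia2 both rose. St8sia4 read 8.58, 8.82 and 8.82 against 8.19, 8.15 and 8.05 (0.61, SE 0.08, adjusted p = 0.00227) and kept its call on leaving out each array. St8sia2 read 9.43, 9.41 and 9.56 against 9.06, 9.17 and 9.23 (0.31, SE 0.06, adjusted p = 0.0166) and lost its call without Klf5-deleted replicate 3 or control replicate 2 (0.26 to 0.32, adjusted p = 0.0532 to 0.0541). St8sia5, of complex gangliosides, read 8.55, 8.42 and 8.26 against 7.92, 8.09 and 7.98 (0.41, SE 0.08, adjusted p = 0.0138) and lost its call without control replicate 3 (0.41, adjusted p = 0.0522). St8sia3 had a larger difference that did not pass, with 9.60, 8.62 and 9.37 against 8.16, 8.52 and 8.59 (0.77, SE 0.24, adjusted p = 0.0705). Klf5-deleted replicate 2 lay next to the controls, and without it St8sia3 passed (1.06, adjusted p = 0.00484). St8sia6 was at 0.12 (SE 0.07). The neural and glial marker list whose values stand above had Sox10 at 0.39 (SE 0.07, adjusted p = 0.00798) as the member that rose. Its other measured members did not pass, from −0.03 (S100b) to 0.29 (Ret). A link between that list and the St8sia genes was not tested.

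**Figure D3:**
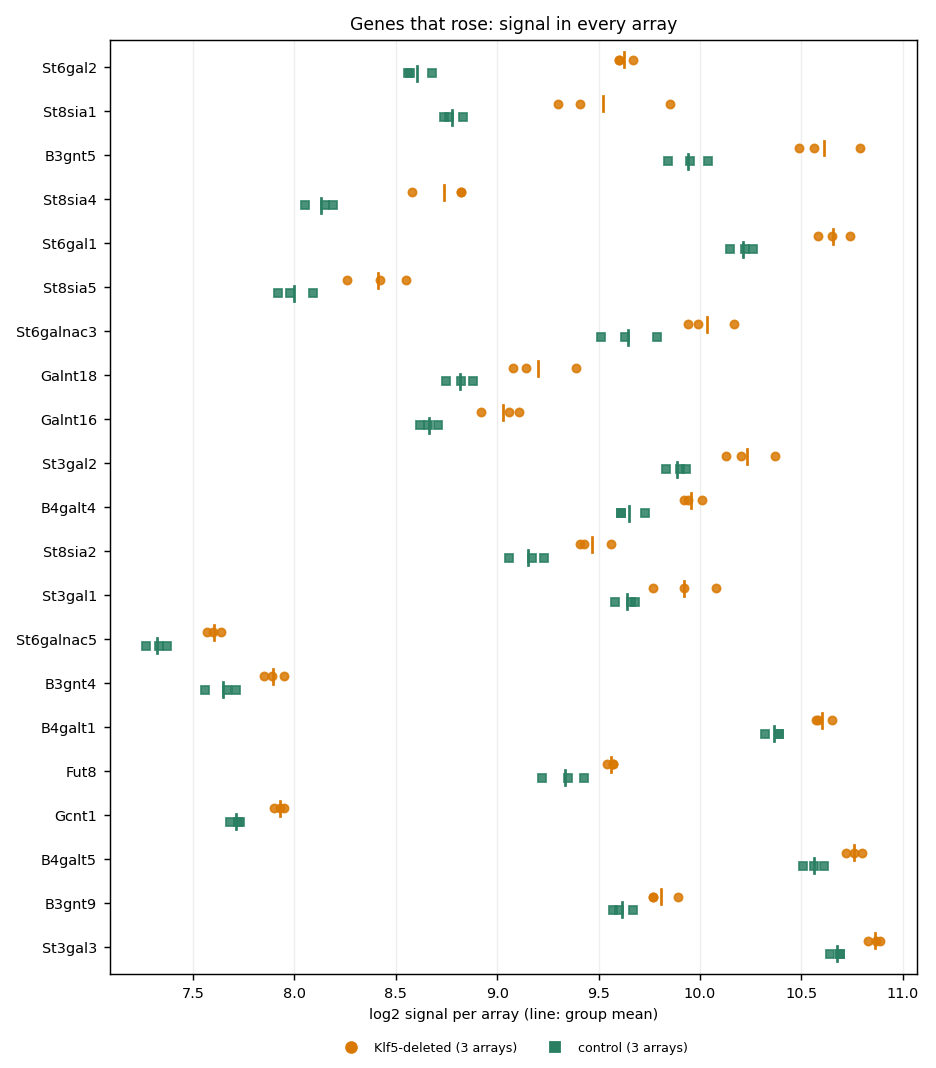
Log2 signal of each of the 21 genes that rose, drawn as circles for the 3 Klf5-deleted arrays and squares for the 3 control arrays with a line at each group mean; genes are ordered by the size of the rise. St6gal2 shows the widest gap between the groups (9.60 to 9.67 against 8.56 to 8.68), and the genes at the bottom differ by about 0.2.

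With the male share as a covariate in limma, 0 of the 77 genes had an adjusted p under 0.05. An unadjusted p under 0.05 was found for 27 of them and for 2882 of all 19938 genes. The 27 included genes that had not passed without the covariate. Examples are B3gnt6, at 0.54 (SE 0.12) against 0.03 without the covariate, and B3galt2, at −0.41 (SE 0.15) against 0.05. At an adjusted p of 0.1 the gene that passed was St6gal2 (0.97, SE 0.14, adjusted p = 0.0636), with 223 passing over all genes. In that fit 83 of all genes passed, or 0.416%, with 0.0201% higher and 0.396% lower, and the median SE over all genes was 2.48 times as large. The mutant pools all lay at 95% to 103% male. The adjustment therefore rested mainly on the 1 array of control replicate 1 (0%) against control replicates 2 and 3 (47.1% and 40.8%). Of the 34 called genes, 33 kept their sign, as did 3466 of the 3496 called over all genes. The sign of Fut8 changed, from 0.22 to −0.05 (SE 0.12). Of the larger falls, Galnt5 was at −1.20 (SE 0.25), B4galnt2 at −1.06 (SE 0.25), Fut2 at −0.93 (SE 0.39) and B4galnt3 at −0.82 (SE 0.27), and those of B4galnt1 and St6galnac2 were smaller than without the covariate, at −1.20 (SE 0.25) and −0.68 (SE 0.17). The fall of B3gnt3 was larger, at −2.22 (SE 0.49), as was that of Gcnt3, at −1.07 (SE 0.35). Control replicate 1 minus the mean of control replicates 2 and 3 was −0.72 for B3gnt3 and −0.23 for Gcnt3. The larger falls thus depend on that 1 array. The fall of Galnt3 was smaller, at −0.33 (SE 0.26). Among the rises, St6galnac3 went to 0.73 (SE 0.19) and B3gnt9 to 0.30 (SE 0.14), whereas St8sia5, St8sia2, St6galnac5 and St3gal2 went to 0.16, 0.14, 0.15 and 0.20 (SE 0.12 to 0.20). C1galt1c1, the X-linked member, was at −0.33 (SE 0.18).

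**Figure D4:**
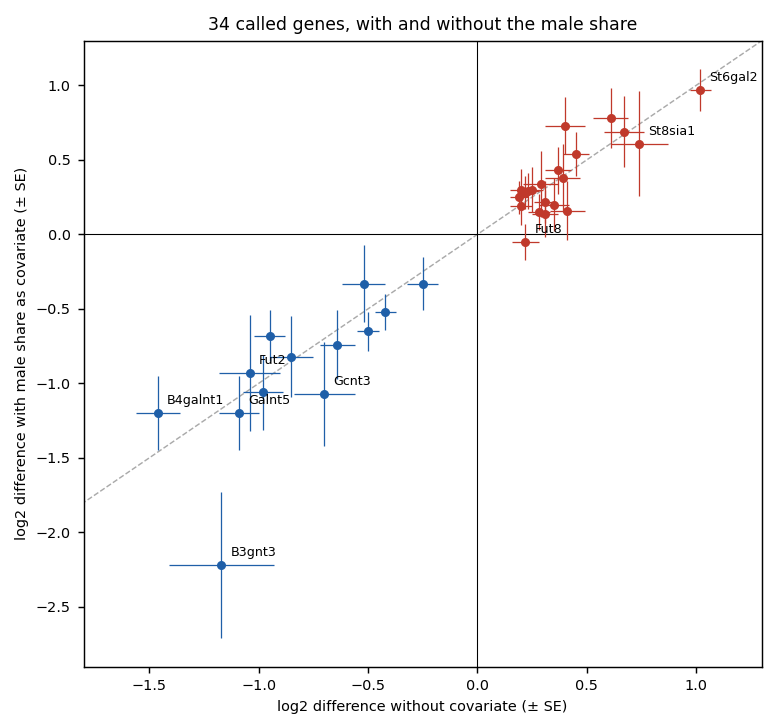
Log2 difference (Klf5-deleted minus control, ± SE) of the 34 called genes in the fit without a covariate (x axis) and in the fit with the male share as covariate (y axis); the dashed line marks equal values, blue points fell and red points rose. The points scatter about the line with wider bars on the y axis, B3gnt3 lies below it at −2.22, and Fut8 is the gene on the other side of 0.

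The donors of these enzymes are nucleotide sugars. Among all genes tested, 8.95% rose and 8.58% fell. Of 34 measured genes of nucleotide sugar synthesis and Golgi transport, 12 fell, 0 rose and 22 did not pass (median −0.09). The count of falls was 7 without control replicate 2, where Gnpnat1, Slc35d1, Nans, Slc35c2 and Gfus were lost, and 8 or 9 without each other array. Nans and Gfus were lost in all 6 fits. Gmds, which starts GDP-fucose synthesis, read 9.55, 9.44 and 9.61 against 10.59, 10.74 and 10.62, a fall of 1.12 (SE 0.06, adjusted p = 6.1e-05). The Golgi GDP-fucose transporter gene Slc35c1 fell by 0.72 (SE 0.05, adjusted p = 0.000119), and the UDP-N-acetylglucosamine transporter gene Slc35a3 by 0.59 (SE 0.04, adjusted p = 0.000184). Every mutant array of Gmds lay below every control array, and the calls of Gmds, Slc35c1 and Slc35a3 were kept on leaving out each array.

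The proteins that carry O-glycans and the enzymes of related pathways showed mixed counts. Among all genes tested 17.5% passed, 8.95% higher and 8.58% lower, and no list was tested against these shares. Of 19 measured mucin and mucin-like genes, 4 fell and 1 rose (median 0.01). The transmembrane mucin genes Muc13 (−2.20, SE 0.28), Muc4 (−1.05, SE 0.10) and Muc3 (−0.49, SE 0.07) fell, with adjusted p of 0.00223, 0.000601 and 0.00385, as did Muc1 (−0.60, SE 0.11, adjusted p = 0.00919). Muc16, also a mesothelial marker, rose by 0.92 (SE 0.19, adjusted p = 0.0164) and no longer passed without control replicate 2 or 3 (0.77 to 0.95, adjusted p = 0.0505 to 0.0525). Of 17 sulfotransferase genes 3 rose and 0 fell (median 0.07), and each of Gal3st3, Chst11 and Chst10 (0.28, 0.22 and 0.31) lost its call in 5 of the 6 fits that left out an array (0.19 to 0.35, adjusted p = 0.0540 to 0.126), the call being kept without Klf5-deleted replicate 3 for Gal3st3, control replicate 3 for Chst11 and control replicate 1 for Chst10. Of 17 genes of N-glycan processing and branching, 3 fell and 1 rose (median −0.02). The rise, of Man2a2 (0.17, SE 0.05, adjusted p = 0.0409), passed in 0 of the 6 fits without an array (0.15 to 0.20, adjusted p = 0.0588 to 0.138). Mgat4a, which starts a branch of complex N-glycans, fell by 2.21 (SE 0.09), with 8.89, 8.66 and 8.94 against 10.92, 11.10 and 11.09 (adjusted p = 1.42e-05). Man1a fell by 0.39 (SE 0.05, adjusted p = 0.00147) and Mogs by 0.30 (SE 0.05, adjusted p = 0.00601). These falls were kept on leaving out each array. Of 18 other glycolipid, blood group and protein-O-glycan transferase genes, 3 fell and 2 rose (median −0.01). Lfng, an enzyme that modifies Notch receptors, fell by 0.65 (SE 0.06, adjusted p = 0.000532). Pofut1 fell by 0.27 (SE 0.04, adjusted p = 0.00469), and both falls were kept on leaving out each array. Gbgt1 rose by 0.25 (SE 0.07, adjusted p = 0.0472) and Ugcg fell by 0.21 (SE 0.06, adjusted p = 0.0467), and neither passed in any of the 6 fits without an array (adjusted p = 0.0555 to 0.149 and 0.0601 to 0.146). B3galnt1 rose by 0.34 (SE 0.09, adjusted p = 0.0350) and passed in 1 of those fits, the one without Klf5-deleted replicate 3. Of 12 genes of glycan trimming and sialic acid acetylation 5 fell and 2 rose (median −0.02). The sialidase gene Neu2 was down by 0.87 (SE 0.08, adjusted p = 0.000557). The lysosomal galactosidase gene Glb1 was down by 0.55 (SE 0.06, adjusted p = 0.000763) and the fucosidase gene Fuca1 by 0.42 (SE 0.05, adjusted p = 0.0011). The rise of Glb1l was lost without Klf5-deleted replicate 3 or control replicate 2 or 3 (0.39 to 0.47, adjusted p = 0.0566 to 0.0635). That left 1 of the 2 rises, Casd1 (0.26, SE 0.05, adjusted p = 0.0134), kept on leaving out each array. Its enzyme adds acetyl groups to sialic acid and does not trim glycans.

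The threshold ran mostly through small differences, although St8sia3 was at 0.77 (SE 0.24). Inside it lay C1galt1c1, Fut8, B3gnt9 and St3gal1, with adjusted p of 0.0352, 0.0421, 0.0460 and 0.0484, and outside it Gcnt4, B3gnt7, B3gnt2 and St8sia3, with 0.0532, 0.0556, 0.0669 and 0.0705. All 34 called genes, which were chosen by the separation of the groups, and 14 of the 43 others had groups that did not overlap. Of all genes, called or not, 36.0% had such groups.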

How the data were processed

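Affymetrix Mouse Gene ST arrays were used, 3 per group. The deposited values are log2 signals, which the submitters' processing notes tie to RMA and to Affymetrix Expression Console 1.1. RMA makes array distributions alike, so that a shift of most genes would be removed, and changes of dim genes are understated. No genome build is named in the labels read here. Arrays have no read depth, and their number limits the precision.

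Of 35557 rows, 21789 had 1 symbol in the platform annotation, 1621 had several and 12147 were not listed there, so that they go unnamed. Gene IDs gave 21698 rows their RefSeq symbol (GRCm38.p6), and 91 kept the annotation's symbol. The brightest row by its mean of 6 arrays stood for each of 19938 genes, with no filter on level. B4galt2, which shares its row with another gene, and Fut1 were not analysed here. The test was limma 3.58.1 (lmFit and eBayes, R 4.3.3), mutant minus control, at a Benjamini-Hochberg adjusted p of 0.05 over all genes, and the code was tested on simulated data. SE is limma's moderated standard error.

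The male share is the mean linear signal of Eif2s3y, Kdm5d and Uty, scaled so that the lowest array is 0% and the mutant mean 100%. Named were all genes that passed, the brightest gene of each family, the 4 nearest the threshold on each side and up to 4 genes of each other list by smallest p, and other members are named where their group is counted. Members, lists and alternatives were chosen with earlier results of these data known. Signals of different genes come from different probes and are not compared as amounts. The labels do not say whether pools shared litters, so p-values reflect only how far these pools differ. The alternatives left out each array, blocked on the replicate number or used quantile normalization, centring on array medians, leaving out the lowest 50% of genes, an intensity trend with robust variance, the mean of all rows of a gene, the male share as covariate, a threshold of 0.1 and the symbols of the platform annotation.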

Additional observations from a re-analysis of the deposited data

How the results depend on the processing

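Of the 34 called genes, 20 kept their call on leaving out each of the 6 arrays, 11 of the 13 that fell and 9 of the 21 that rose. The count of rises ran from 11 to 18 in these fits and that of falls from 12 to 14, and over all genes 2000 to 2757 passed, against 3496. Klf5 kept its fall, at −1.40 to −1.27. With the replicate number as a block, 13 genes rose, 12 fell and 2008 of all genes passed. Taken over all genes, same-numbered arrays did not deviate together (correlations of −0.145, −0.274 and −0.0315). In some single genes they did, such as Hba-x, with 12.37, 12.02 and 12.75 in the mutants against 11.51, 11.16 and 11.8. With the block, limma's adjusted p of B3gnt3 went from 0.0156 to 0.000749, whereas 10 of the 34 calls were lost. Whether the numbers pair the arrays was not settled. With the male share as covariate 0 rose and 0 fell by limma's adjusted p, with 27 at an unadjusted p under 0.05, not all of them among the 34 called genes. Of all genes 83 passed, and 2882 had an unadjusted p under 0.05. The design holds no mutant pool with a low male share, and the cause was not tested. In that fit Fut8 turned to −0.05 and Gcnt4 to 0.03. With the lowest 50% of genes left out, 43 of the 77 were measured, of which 21 rose and 7 fell. The filter removed 6 of the falls and 5 of the rises (B3gnt4, Gcnt1, St6galnac5, St8sia4 and St8sia5), and 5 others joined the rises (B3gnt7, B4galnt4, Fut10, St6galnac6 and St8sia3). With arrays centred on their medians 16 rose and 15 fell, so that 51.6% of the calls were higher, against 61.8%. Over all genes the share was 40.8%, against 51.1%. The calls lost there were St3gal1, St3gal3, B3gnt9, B4galt5 and Fut8. Quantile normalization and an intensity trend with robust variance kept all 34 calls, and the platform's symbols gave the same 77 genes. Differences near 0 changed sign: B3galt6 ran from −0.01 to 0.04 on leaving out each array and was at −0.01 when centred and with the male share, and Fut11 ran from 0.0 to 0.03 and was at −0.01 when centred and at 0.0 with the male share. By the mean of 6 arrays, none of the called genes was in the dimmest 25% of genes (under 6.84), where 9 of the 77 lay and changes are understated. The mutant arrays of Galnt5 (6.32 to 6.63) and Gcnt3 (6.39 to 6.73) lay under that level, so these 2 falls may be understated too.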
